A study of Mus musculus with 13 samples.

Results

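Eif4ebp1, Eif4ebp2, Ddit4, Ddit4l, Sesn1, Sesn3, Deptor and Castor2 encode restraints on mTORC1 and on the translation it drives. They make up 8 of the 21868 genes in the normalized counts, and all 8 passed the filter on low counts. They were picked by name with their levels in the 3 treatment groups already known. Those levels are therefore given as a description, with no p-value for any of the 8 genes. Where the limma fit over all genes counts some of them as called, the count stands beside that over all genes and nothing is read from it.

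mTORC1 is a kinase complex that raises protein synthesis when amino acids, energy and growth factors are plentiful. It phosphorylates the 4E-BPs, which otherwise hold the cap-binding protein eIF4E and block the start of cap-dependent translation. Redd proteins restrain mTORC1 through the TSC complex, sestrins and Castor proteins restrain it through the amino acid-sensing GATOR complexes, and Deptor binds mTOR itself. In skeletal muscle this balance of synthesis and restraint is part of the control of fiber size.

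RNA from whole gastrocnemius, a fast-twitch calf muscle, was sequenced from 13 mice to see how muscle transcripts differed between treatments. All mice were male C57BL/6 (C57BL/6N in the study's legend), entered at 7 weeks of age, ate a diet with 60% of its calories as fat for 15 to 17 weeks and then returned to chow. For the last 3 weeks, 5 mice received phosphate-buffered saline (vehicle mice 1 to 5) and 5 received intraperitoneal semaglutide, an agonist of the GLP-1 receptor, at 30 nM/kg/day (semaglutide mice 13 to 17). Both of those groups carry a placebo in their labels, and 3 more mice (19, 21 and 22) received the same semaglutide dose with a ketone ester, a drinkable source of ketone bodies, at 0.114 g/mL in the water. Every group, vehicle included, had thus been made obese and then moved to chow.

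Between 15319471 and 23498162 reads per mouse lay on genes. All 8 skeletal muscle markers (Acta1, Ckm, Myh4, Myh1, Myh2, Myh7, Ttn and Mb) were detected. Their summed normalized count was 2294955 to 2729032 in vehicle, 1487533 to 2520001 under semaglutide and 2868631 to 3347980 with the ketone ester added. By limma, 3 of 8 were lower in semaglutide than in vehicle mice, beside 13.2% of all genes tested. Semaglutide mouse 13 stood apart from its group. On the first principal component, which held 38.1% of the variance, it scored -9.1, while the other semaglutide mice scored 31.8 to 52.5, vehicle mice -24.5 to -12.8 and mice given both agents -25.6 to -15.8. Results are therefore also given without it, an alternative fixed with earlier results known. In bulk muscle, fewer cells of one type and less RNA per cell cannot be told apart.

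Promoter windows (250 bases before to 50 after the annotated start) were found in the RefSeq table, build GRCm38.p6, for 6 of the 8 genes. They are shown for Sesn1, the only gene with a match to the motifs below, and for the Redd pair, whose means lay on opposite sides of vehicle. Both strands of 7 windows were searched for the FOXO core GTAAACA, the ATF/CEBP composite TGATGNAA, the E-box CACGTG and the glucocorticoid receptor half-site AGAACA. Capitals mark the 1 match, the FOXO core on the strand opposite to the gene (TGTTTAC) in 1 of the 2 Sesn1 windows. The other Sesn1 window, chr10:41887189-41887488 (+), held none of the 4 motifs and is not printed.
Sesn1, chr10:41810324-41810623 (+): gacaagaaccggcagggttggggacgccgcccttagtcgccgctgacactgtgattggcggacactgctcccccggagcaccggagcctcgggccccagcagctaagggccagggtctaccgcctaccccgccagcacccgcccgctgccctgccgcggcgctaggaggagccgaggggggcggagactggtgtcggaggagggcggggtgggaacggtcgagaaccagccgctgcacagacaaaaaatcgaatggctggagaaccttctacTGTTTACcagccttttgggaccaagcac
Ddit4, chr10:59951721-59952020 (-): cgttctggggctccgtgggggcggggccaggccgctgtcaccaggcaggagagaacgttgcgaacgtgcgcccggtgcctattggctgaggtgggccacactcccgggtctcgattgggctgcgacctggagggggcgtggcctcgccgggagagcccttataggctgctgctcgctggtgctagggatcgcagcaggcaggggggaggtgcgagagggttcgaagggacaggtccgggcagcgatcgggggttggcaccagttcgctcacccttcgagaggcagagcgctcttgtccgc
Ddit4l, chr3:137623422-137623721 (+): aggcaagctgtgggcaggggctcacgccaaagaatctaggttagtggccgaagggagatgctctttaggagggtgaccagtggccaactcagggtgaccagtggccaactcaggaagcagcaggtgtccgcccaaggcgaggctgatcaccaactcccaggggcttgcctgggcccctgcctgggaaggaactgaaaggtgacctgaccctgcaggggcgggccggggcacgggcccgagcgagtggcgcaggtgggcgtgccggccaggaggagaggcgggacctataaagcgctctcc
The match lay 23 bases past the start, at chr10:41810596-41810602. The FOXO core occurred in 3.65% of all 32851 windows of that length, TGATGNAA in 3.97%, CACGTG in 7.15% and AGAACA in 19.0%, and the last 3 were in none of the 7 windows. The 7 windows had a GC content of 62.7% to 71.0%, against a median of 52.7% over all windows. No window was found for Eif4ebp1 or Deptor.

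The 4E-BPs were uneven. Eif4ebp1 (chromosome 8, 27260329 to 27276674, plus strand, GRCm38), which encodes the 4E-BP best known as an mTORC1 substrate, had normalized counts of 554, 621, 448, 501 and 621 in vehicle mice 1 to 5. It had 772, 3467, 4047, 4713 and 5033 in semaglutide mice 13 to 17, and 737, 627 and 689 in semaglutide + ketone ester-treated mice 19, 21 and 22. Every semaglutide mouse lay above every other mouse, but mouse 13, at 772, was close to the highest semaglutide + ketone ester-treated mouse. The means were 549 ± 75.6 (SD, n = 5), 3606 ± 1696 (n = 5) and 684 ± 55.3 (n = 3). On the log2(normalized count + 1) scale the difference was 2.48 (SE 0.42) for semaglutide against vehicle and -2.15 (SE 0.48) for semaglutide + ketone ester against semaglutide. Counting Eif4ebp1 itself, 47 of 12303 genes differed between semaglutide and vehicle by at least as much, in either direction. Eif4ebp1 was picked with these levels known, so this rank is a description and no evidence about it. Without mouse 13, the semaglutide mean was 4315 ± 699 (n = 4), and the 2 differences were 2.97 (SE 0.13) and -2.64 (SE 0.15).

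Eif4ebp2 (chromosome 10, 61428491 to 61452661, minus strand) encodes another 4E-BP that binds eIF4E in the same way. Its normalized counts were 9032, 9769, 9503, 7237 and 7247 in vehicle mice, 9793, 9798, 9662, 7404 and 9347 in semaglutide mice, and 8476, 7264 and 5950 in semaglutide + ketone ester-treated mice. The 3 groups overlapped. Its log2 difference was only 0.11 (SE 0.13) for semaglutide against vehicle and -0.35 (SE 0.15) for semaglutide + ketone ester against semaglutide, and the latter was -0.59 with the mice rescaled to equal total counts.

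Levels of different genes were compared per kb of merged exon length. Per kb, Eif4ebp2 was the main 4E-BP of vehicle muscle, at 1480 ± 213 normalized counts per kb (SD, n = 5) against 250 ± 34.4 for Eif4ebp1. Under semaglutide they were at 1591 ± 177 and 1642 ± 772 (n = 5). Eif4ebp1 thus made up 14.6% ± 2.68 of the summed 4E-BP level in vehicle mice, 47.5% ± 17.8 in semaglutide mice and 19.9% ± 2.71 in semaglutide + ketone ester-treated mice (n = 3). By mouse its share was 17.2% in semaglutide mouse 13, inside the vehicle range of 11.0% to 18.4%, and reached 61.9% in the highest semaglutide mouse. Eif4ebp3, the third 4E-BP gene, held at most 1.96% in any mouse. The summed 4E-BP level per Eif4e, the transcript of their binding partner, was 8.34 ± 1.03 in vehicle, 18.3 ± 6.65 in semaglutide and 6.70 ± 1.48 in semaglutide + ketone ester-treated mice. The lowest semaglutide mouse, at 8.10, lay within the vehicle range of 6.71 to 9.55.

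**Figure D1:**
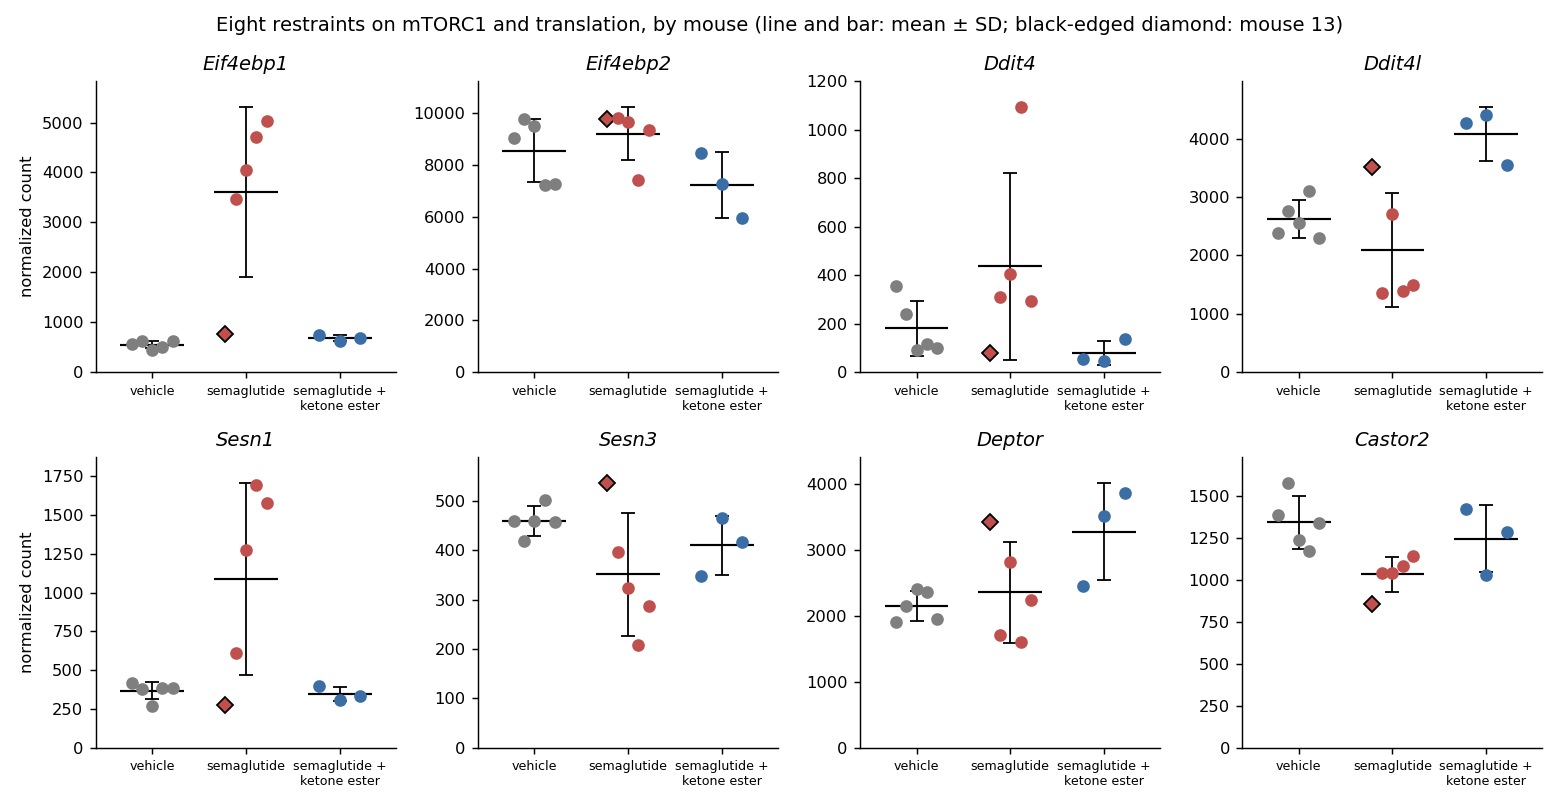
Normalized count (y axis, from 0) of each of the 8 genes in each mouse of the 3 groups (x axis). Points are mice, the horizontal line and bar are the mean ± SD, and the black-edged diamond is semaglutide mouse 13, which for Eif4ebp1 sits at 772 while the other 4 semaglutide mice sit between 3467 and 5033.

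The Redd pair had group means on opposite sides of vehicle, with overlapping mice under semaglutide. Ddit4 (chromosome 10, 59949669 to 59951834, minus strand) encodes Redd1, a stress- and glucocorticoid-responsive activator of the TSC brake. Its normalized counts were 355, 238, 91.6, 114 and 100 in vehicle mice, 78.3, 311, 404, 1092 and 295 in semaglutide mice and 54.7, 44.7 and 135 in semaglutide + ketone ester-treated mice. Semaglutide mice 14 to 17 lay above all semaglutide + ketone ester-treated mice but overlapped vehicle mouse 1, and mouse 13 was below every vehicle mouse. The group means were 180 ± 115, 436 ± 385 and 78.0 ± 49.3. On the log2 scale, Ddit4 differed by 1.03 (SE 0.62) for semaglutide against vehicle, -2.18 (SE 0.71) for semaglutide + ketone ester against semaglutide and -1.15 (SE 0.71) for semaglutide + ketone ester against vehicle. Ddit4 varied more within groups than the other 7 genes, with an SD on the log2 scale of 0.86 in vehicle, 1.35 in semaglutide and 0.84 in semaglutide + ketone ester-treated mice. Without mouse 13, the first 2 differences were 1.53 (SE 0.52) and -2.68 (SE 0.59).

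Ddit4l (chromosome 3, 137621612 to 137628333, plus strand) encodes Redd2, the form enriched in muscle. Its normalized counts were 2384, 2764, 2565, 3111 and 2291 in vehicle mice and 3519, 1362, 2703, 1384 and 1498 in semaglutide mice. They were 4278, 4405 and 3556 in semaglutide + ketone ester-treated mice, all above every vehicle and every semaglutide mouse. Within the semaglutide group, mice 14, 16 and 17 lay below all vehicle mice, mouse 15 lay among them and mouse 13 lay above them. The means were 2623 ± 327, 2093 ± 974 and 4080 ± 458. As log2 differences these were -0.43 (SE 0.25) for semaglutide against vehicle, 1.07 (SE 0.28) for semaglutide + ketone ester against semaglutide and 0.64 (SE 0.28) for semaglutide + ketone ester against vehicle. Without mouse 13 the first 2 were -0.65 (SE 0.19) and 1.29 (SE 0.22), and with equal total counts -0.26 and 0.84. The erythroid markers Hba-a1, Hba-a2, Hbb-bs, Hbb-bt and Alas2 were also highest with the ketone ester, with a summed normalized count of 2849 to 5558 against 1356 to 2291 in vehicle mice. In semaglutide mice that sum ran from 50.5 in mouse 16 to 3148 in mouse 13, and its part in the Ddit4l differences was not tested.

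Per kb, Ddit4 held 10.1% ± 6.14 of the Redd transcripts in vehicle mice, 26.5% ± 19.3 in semaglutide mice and 3.22% ± 2.35 in semaglutide + ketone ester-treated mice. Its highest share was 56.7%, in semaglutide mouse 16, the only mouse in which Ddit4 exceeded Ddit4l. The summed Redd level was 1002 ± 116, 966 ± 282 and 1443 ± 129 normalized counts per kb in the same order. Vehicle mice, at 843 to 1132, and semaglutide mice, at 644 to 1252, overlapped, and semaglutide + ketone ester-treated mice, at 1296 to 1536, lay above both.

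**Figure D2:**
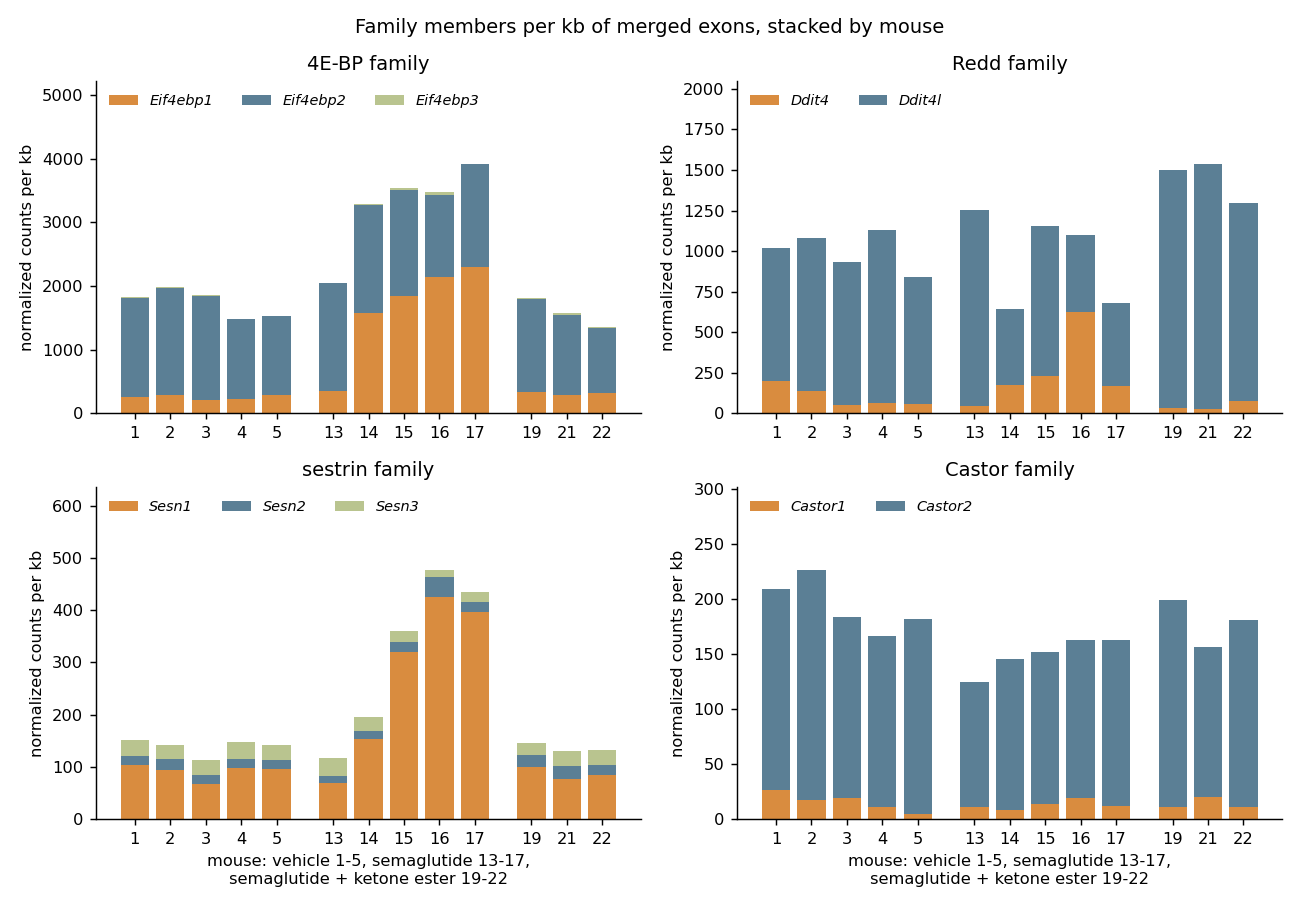
Normalized counts per kb of merged exons (y axis) stacked by family member for each mouse (x axis) in the 4E-BP, Redd, sestrin and Castor families. Eif4ebp1 grows from 11.0% to 18.4% of its family in vehicle mice to as much as 61.9% under semaglutide, and Sesn1 from 59.6% to 68.6% to as much as 91.2%.

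The sestrins are stress-induced binders of GATOR2. Sesn1 (chromosome 10, 41809935 to 41908424, plus strand) had normalized counts of 415, 377, 271, 387 and 387 in vehicle mice. In semaglutide mice it had 277, 612, 1273, 1694 and 1579, and in semaglutide + ketone ester-treated mice 396, 306 and 334. Semaglutide mice 14 to 17 lay above all other mice, and mouse 13 lay at the low end of the vehicle range. The means were 367 ± 55.8, 1087 ± 618 and 345 ± 46.2. The log2 difference was 1.30 (SE 0.42) for semaglutide against vehicle and -1.38 (SE 0.48) for semaglutide + ketone ester against semaglutide, and without mouse 13 it was 1.72 (SE 0.26) and -1.80 (SE 0.30).

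Sesn3 (chromosome 9, 14275067 to 14333101, plus strand) had a lower mean under semaglutide than in vehicle mice, with overlap. It had 459, 418, 459, 502 and 458 normalized counts in vehicle mice, 536, 397, 324, 209 and 287 in semaglutide mice and 347, 465 and 417 in semaglutide + ketone ester-treated mice. Semaglutide mice 14 to 17 lay below all vehicle mice, and mouse 13 lay above them. Sesn3 differed on the log2 scale by -0.46 (SE 0.20) for semaglutide against vehicle and 0.29 (SE 0.23) for semaglutide + ketone ester against semaglutide. Without mouse 13 these were -0.63 (SE 0.16) and 0.46 (SE 0.18), and with the mice rescaled to equal total counts -0.28 and 0.0489. Per kb, Sesn1 held 65.7% ± 3.58 of the sestrin transcripts in vehicle mice, 81.5% ± 13.4 in semaglutide mice and 63.4% ± 4.90 in semaglutide + ketone ester-treated mice. The share of Sesn3 was 21.7% ± 2.84, 11.3% ± 11.1 and 19.8% ± 3.87 in the same order. That of Sesn2, a leucine-binding sestrin, was 12.5% ± 1.46, 7.25% ± 2.66 and 16.8% ± 1.55. These shares depend on the merged exon lengths, 3.98 kb for Sesn1, 15.27 kb for Sesn3 and 3.48 kb for Sesn2.

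Deptor (chromosome 15, 55112317 to 55259271, plus strand), which encodes the inhibitor that binds mTOR, had 1902, 2151, 2400, 2355 and 1958 normalized counts in vehicle mice. It had 3420, 1703, 2817, 1605 and 2245 in semaglutide mice and 2447, 3507 and 3864 in semaglutide + ketone ester-treated mice. Semaglutide mice fell on both sides of the vehicle range, and semaglutide + ketone ester-treated mice lay above every vehicle mouse. The log2 difference was 0.0768 (SE 0.20) for semaglutide against vehicle, 0.51 (SE 0.24) for semaglutide + ketone ester against semaglutide and 0.58 (SE 0.24) for semaglutide + ketone ester against vehicle. Without mouse 13 the first of these was -0.0723 (SE 0.18), so that its sign turned, and the second was 0.66 (SE 0.21). With equal total counts the first was 0.25 and the second 0.27.

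Castor2 (chromosome 5, 134099711 to 134144343, plus strand), the partner of the arginine sensor Castor1, had 1386, 1577, 1239, 1170 and 1342 normalized counts in vehicle mice. All 5 semaglutide mice were lower, at 859, 1039, 1044, 1083 and 1142, and semaglutide + ketone ester-treated mice had 1422, 1028 and 1287, overlapping both. Here mouse 13 was the lowest of its group. The log2 difference was -0.38 (SE 0.12) for semaglutide against vehicle and 0.26 (SE 0.13) for semaglutide + ketone ester against semaglutide. With equal total counts these were -0.20 and 0.0259, and without mouse 13 they were -0.31 (SE 0.11) and 0.20 (SE 0.13). Castor2 made up 92.0% ± 3.87 of the Castor transcripts per kb in vehicle mice, 91.3% ± 2.31 in semaglutide mice and 91.6% ± 4.15 in semaglutide + ketone ester-treated mice.

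**Figure D3:**
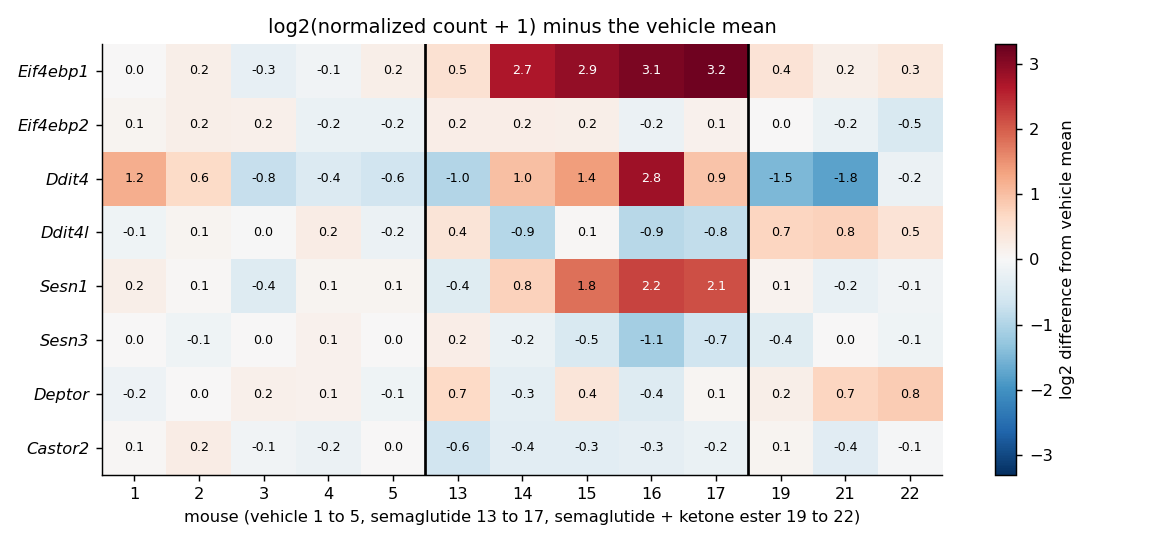
Difference of log2(normalized count + 1) from the vehicle mean (color scale) for the 8 genes (rows) in the 13 mice (columns, with black lines between groups). Semaglutide mice 14 to 17 show Eif4ebp1 raised by 2.67 to 3.21, and mouse 13 shows 0.50.

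The order of levels per kb changed between groups. In vehicle muscle it was Eif4ebp2, Ddit4l (900 ± 112 normalized counts per kb), Eif4ebp1, Deptor (243 ± 25.4), Castor2 (178 ± 20.7), Ddit4 (102 ± 65.3), Sesn1 (92.3 ± 14.0) and Sesn3 (30.1 ± 1.96). The neighbors Eif4ebp1 and Deptor, Castor2 and Ddit4, and Ddit4 and Sesn1 overlapped between mice, and the other neighbors did not. Under semaglutide, Eif4ebp1 and Eif4ebp2 overlapped at the top, Ddit4l (718 ± 334) lay below Eif4ebp2 in every mouse and above Eif4ebp1 only in mouse 13, and Sesn1 (273 ± 155), Deptor (266 ± 86.3), Ddit4 (249 ± 220) and Castor2 (137 ± 14.0) overlapped in turn. In semaglutide + ketone ester-treated mice Ddit4l (1399 ± 157) and Eif4ebp2 (1250 ± 218) overlapped at the top, ahead of Deptor (369 ± 83.0) and Eif4ebp1 (312 ± 25.2), which also overlapped. Sesn3 had the lowest mean of the 8 genes in all 3 groups, though it overlapped Ddit4 in the semaglutide + ketone ester group and lay above it in mouse 21 (30.5 against 25.5). It stood at 23.0 ± 8.10 under semaglutide and 26.8 ± 3.88 with the ketone ester. This order rests on the merged exon lengths, which were 15.27 kb for Sesn3, 3.98 kb for Sesn1 and 1.75 kb for Ddit4. Before division by length, the vehicle mean of Sesn3, at 459 normalized counts, was above those of Sesn1 (367) and Ddit4 (180). Which of the annotated exons are used in this muscle was not tested.

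Among all genes tested with limma, 11.9% were higher and 13.2% lower in semaglutide than in vehicle mice at an adjusted p under 0.05, and such genes are said to be called. Of the 8 genes, 2 were on the higher side (Eif4ebp1 and Sesn1) and 1 on the lower (Castor2). For semaglutide + ketone ester against semaglutide, 9.09% of all genes were higher and 9.30% lower, with 1 of the 8 on each side (Ddit4l and Eif4ebp1). For semaglutide + ketone ester against vehicle, 0.0732% of all genes were higher and 0.163% lower, and none of the 8 genes was among them. With 3 mice in the semaglutide + ketone ester group, few calls do not show that these groups were alike. Without mouse 13, the background was 17.3% higher and 18.9% lower for semaglutide against vehicle, and 16.0% higher and 16.2% lower for semaglutide + ketone ester against semaglutide. In that first comparison 3 of the 8 were higher (Eif4ebp1, Ddit4 and Sesn1) and 3 lower (Ddit4l, Sesn3 and Castor2), and in the second 2 were higher (Ddit4l and Deptor) and 3 lower (Eif4ebp1, Ddit4 and Sesn1). The 8 were picked on these contrasts, so these counts are no evidence about them.

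Groups that did not overlap, in either direction, were found for 14.7% of all genes between semaglutide and vehicle, 20.1% between semaglutide + ketone ester and semaglutide, and 11.3% between semaglutide + ketone ester and vehicle. Of the 8 genes, 2 did not overlap in the first (Eif4ebp1 and Castor2), 2 in the second (Eif4ebp1 and Ddit4l) and 3 in the third (Eif4ebp1, Ddit4l and Deptor, all higher with the ketone ester). The ratio of semaglutide + ketone ester to vehicle means was 1.25 for Eif4ebp1, 1.56 for Ddit4l and 1.52 for Deptor, against 0.43 for Ddit4 and 0.94 for Sesn1. The median log2 difference of the 8 genes was 0.0929, -0.0459 and -0.098 in the 3 comparisons, beside -0.00287, -0.000243 and -0.00593 over all 12303 genes. Their median absolute difference was 0.44, 0.79 and 0.29, beside 0.25, 0.26 and 0.13. The 8 genes were picked with these differences known, so neither the medians nor the non-overlap counts are evidence about them. The comparisons share groups of mice, so they are not independent of each other.

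**Figure D4:**
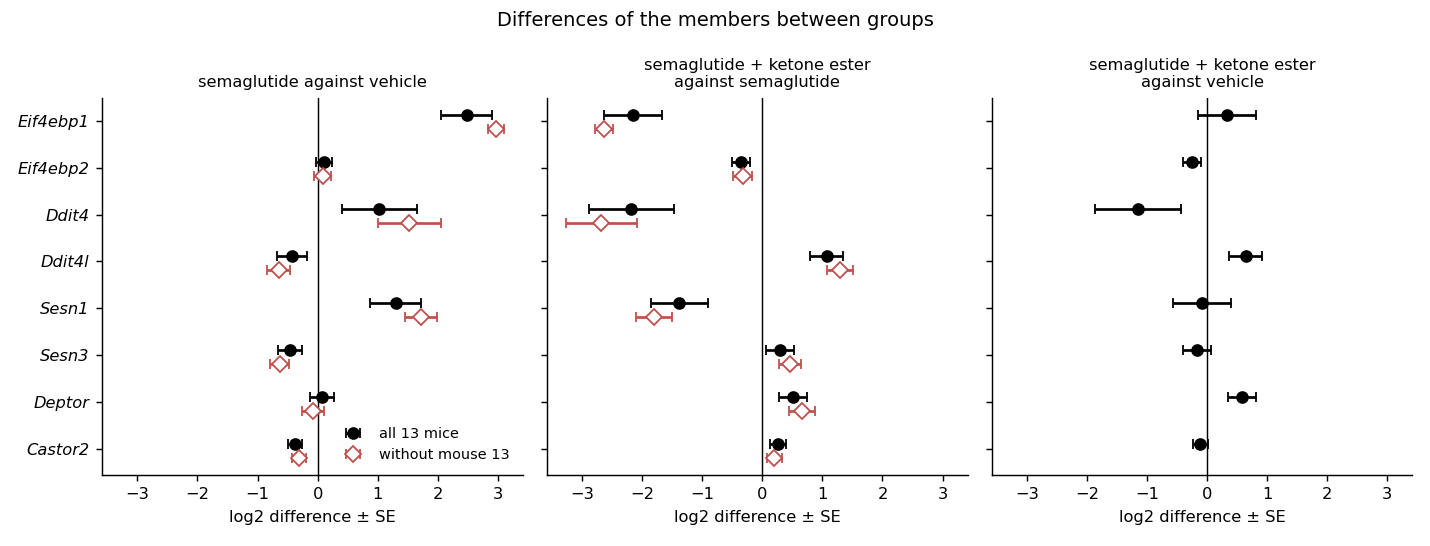
Log2 difference ± SE (x axis) of each of the 8 genes (y axis) in the 3 comparisons. Black points use all 13 mice and open diamonds leave out mouse 13, which moves Eif4ebp1 from 2.48 to 2.97 and Deptor from 0.0768 to -0.0723 in semaglutide against vehicle.

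Across mice, some of the 8 genes varied together. Likeness was measured as the root-mean-square difference of standardized log2 values over 13 mice, where 0 is an identical pattern. Eif4ebp1 and Sesn1 were the closest pair, at 0.38, and Ddit4 was 0.65 from Sesn1 and 0.76 from Eif4ebp1. Ddit4l and Deptor were 0.67 apart, and Ddit4l and Sesn3 0.92. Between these sets the distances were larger, such as 1.85 between Eif4ebp1 and Ddit4l and 1.94 between Sesn1 and Sesn3. After each group mean was subtracted, Eif4ebp1 and Sesn1 were 0.41 apart, Ddit4 was 0.75 from Sesn1, and Ddit4l and Deptor were 0.68 apart. Mouse 13 stood apart from its group in most of these genes, and its weight on these within-group distances was not tested.

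Outside the 8 genes, the patterns nearest to Eif4ebp1 over the 13 mice were those of Mars, a methionyl-tRNA synthetase, at 0.14, and of the myosin gene Myo18b, at 0.15. For Sesn1 they were Lrrc47 and Il6ra, the interleukin-6 receptor, both at 0.21. Ddit4 was nearest to S1pr1 (0.31), a sphingosine phosphate receptor, and Rhob (0.33), and Ddit4l to Alas2 (0.33), a heme synthesis enzyme and one of the erythroid markers above, and Atxn1 (0.34). Deptor was nearest to the glycolytic gene Pgk1 (0.36) and to Ints6l (0.39), Sesn3 to Mrpl19 (0.29) and Pdxp (0.31), Eif4ebp2 to Lsm14a (0.31) and Phc1 (0.34), and Castor2 to Mvp (0.40) and Mcur1 (0.50). With group means subtracted, the nearest were Ugp2 (0.16) and Bnip3 (0.21) for Eif4ebp1, Fam214a (0.17) and Plin5 (0.21) for Sesn1, Nfkbia (0.26) for Ddit4 and again Mrpl19 (0.17) for Sesn3. These distances carry no test.

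The 3 remaining family genes stayed low and were not called in any comparison by limma, with none at an unadjusted p under 0.05 and none called by edgeR or DESeq2 on the recovered reads. Sesn2 had 60.4 ± 6.03, 72.0 ± 34.7 and 79.3 ± 7.38 normalized counts in vehicle, semaglutide and semaglutide + ketone ester-treated mice. Semaglutide mouse 16, with 132, was its highest mouse, and without that mouse limma called Sesn2 higher with the ketone ester than with semaglutide alone, by 0.48 on the log2 scale. Castor1 had 24.9 ± 13.1, 20.7 ± 6.60 and 23.0 ± 8.37, and Eif4ebp3 had 5.81 ± 4.62, 13.6 ± 12.6 and 13.3 ± 9.65, with no read in vehicle mouse 5 and semaglutide mouse 13.

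Of 80 other genes of the pathway, 79 could be tested. Limma called 10 higher and 7 lower in semaglutide than in vehicle mice, beside 11.9% and 13.2% of all genes. For semaglutide + ketone ester against semaglutide, 2 were higher and 13 lower, beside 9.09% and 9.30% of all genes. Against vehicle only Foxo1 was called. With the mice rescaled to equal total counts, a setting that moved the median of all genes by 0.17 in the first comparison and -0.24 in the second, the pathway split was 24 higher and 3 lower, and 0 higher and 31 lower. Over all genes the same rescaling gave 3262 higher and 929 lower in place of 1459 and 1625, and 611 higher and 3587 lower in place of 1118 and 1144. The counts of pathway genes called therefore depend on the scaling, while the log2 differences of the called genes named below kept their sign under it.

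The transcription factors known to act on these genes moved in several directions. Atf4, the integrated stress response factor that can induce Eif4ebp1, Ddit4 and sestrin genes, had 2708 ± 224 normalized counts in vehicle, 4056 ± 753 in semaglutide and 2474 ± 209 in semaglutide + ketone ester-treated mice. It rose by 0.56 on the log2 scale (SE 0.13, limma adjusted p = 0.0085) under semaglutide and was lower by -0.69 (SE 0.15, adjusted p = 0.0088) with the ketone ester than with semaglutide alone. In Atf4 too, mouse 13, at 2917, lay within the vehicle range of 2437 to 2950, and the other semaglutide mice lay at 3944 to 5013. Ddit3, another factor of that response, was not called, at 148 ± 13.6, 150 ± 68.9 and 188 ± 19.1.

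Foxo1, a factor linked to muscle atrophy and to sestrin expression, went down in both treated groups. It had 1742 ± 725 normalized counts in vehicle, 813 ± 195 in semaglutide and 389 ± 142 in semaglutide + ketone ester-treated mice. The log2 difference was -1.03 (SE 0.27, limma adjusted p = 0.018) for semaglutide against vehicle, -1.09 (SE 0.32, adjusted p = 0.033) for semaglutide + ketone ester against semaglutide and -2.12 (SE 0.32, adjusted p = 0.028) for semaglutide + ketone ester against vehicle. The first call held without any single mouse. The second was lost without mouse 15, 16, 17, 21 or 22 (differences of -1.08 to -0.94), and the last without mouse 1, 2, 3, 21 or 22 (-2.21 to -1.94). All semaglutide mice, at 621 to 1122, were below the lowest vehicle mouse, at 1175, and above the highest semaglutide + ketone ester-treated mouse, at 553. Nr3c1, the glucocorticoid receptor gene, fell by 0.74 on the log2 scale under semaglutide (SE 0.15, limma adjusted p = 0.0048). Foxo3 was lower with the ketone ester than with semaglutide alone (-0.53, SE 0.17, limma adjusted p = 0.046), a call lost without any 1 of 11 mice (all but 13 and 19), with differences of -0.58 to -0.43. Foxo4, Trp53 and Hif1a were not called in any comparison in the main limma fit. Of 23 alternative fits, 2 called Foxo4 for semaglutide + ketone ester against semaglutide and 1 called Trp53 for semaglutide against vehicle.

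Most of the core machinery was not called in the main fit. Mtor had 1158 ± 91.5, 1318 ± 242 and 942 ± 71.6 normalized counts, with mouse 13 at 894 and the other semaglutide mice at 1347 to 1469. Without mouse 13 it was called in both comparisons with semaglutide, at 0.30 and -0.60 on the log2 scale. Of 23 alternative fits, that one included, 2 called Mtor for semaglutide against vehicle and 8 for semaglutide + ketone ester against semaglutide. In the latter its main limma adjusted p was 0.052. Rptor, Rheb, Tsc2, Eif4e, Eif4g1 and Rps6kb1 were not called in any comparison in the main limma fit. Without mouse 13, Rptor (-0.32) and Rheb (0.30) were called for semaglutide against vehicle. Rheb (-0.31) and Eif4e (0.46) were then called for semaglutide + ketone ester against semaglutide. Over the same 23 fits, 4 called Rheb, 2 Rptor and 1 each Tsc2, Eif4g1 and Rps6kb1 for semaglutide against vehicle. For semaglutide + ketone ester against semaglutide, 4 called Eif4g1, 3 Rheb, 2 each Tsc2 and Eif4e, and 1 Rps6kb1. Tsc1, a subunit of the TSC brake, rose by 0.38 (SE 0.0799, limma adjusted p = 0.0063) under semaglutide and was lower by -0.54 (SE 0.0923, adjusted p = 0.0035) with the ketone ester than without it. Sec13 of GATOR2 did likewise, with 0.44 (SE 0.0779, limma adjusted p = 0.0024) and -0.51 (SE 0.0899, adjusted p = 0.0039), as did Telo2, which helps to assemble mTOR complexes, with 0.50 (SE 0.12, adjusted p = 0.010) and -0.46 (SE 0.14, adjusted p = 0.036), the latter lost without any 1 mouse of either group (-0.49 to -0.42) other than mouse 13. Akt1s1, which encodes the mTORC1 inhibitor PRAS40, changed by 0.26 and -0.31 (limma adjusted p = 0.041 and 0.045), the first call being lost without any 1 of 9 mice (all but 13, 16, 19 and 21, 0.24 to 0.28) and the second without any 1 of 10 (all but 13, 16 and 19, -0.33 to -0.23).

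Of 17 genes of cap-dependent initiation and S6K output, 4 were called higher under semaglutide (Eif4a1, Rps6, Eef2 and Eif4g3) and none lower, beside 11.9% and 13.2% of all genes. With the ketone ester 4 were lower than with semaglutide alone (Eif4g3, Eif4a1, Eef2 and Larp1) and none higher, beside 9.30% and 9.09%. In that second comparison the Eef2 call was lost without any 1 of 12 mice (all but 13, -0.84 to -0.62), that of Eif4g3 without mouse 17, 21 or 22 (-0.56 to -0.52) and that of Eif4a1 without mouse 21 or 22 (-0.72 to -0.71). Eif4a1, the helicase of the cap-binding complex, rose by 0.68 (SE 0.15, limma adjusted p = 0.0073), Eif4g3, a scaffold of that complex, by 0.63 (SE 0.13, adjusted p = 0.0062), and Rps6, a ribosomal protein, by 0.67 (SE 0.17, adjusted p = 0.016). Eef2, the elongation factor, changed by 0.64 (SE 0.20, limma adjusted p = 0.037) under semaglutide, a call lost without any 1 of the 9 vehicle and semaglutide mice other than mouse 13 (0.54 to 0.67). Of 24 other restraints, 2 were called higher (Tsc1 and Nprl3) and 3 lower (Prkab2, Prkag2 and Pdcd4) in semaglutide than in vehicle mice. With the ketone ester against semaglutide alone, 1 was higher (Prkab2) and 3 lower (Tsc1, Bmt2 and Grb10). For semaglutide against vehicle, Prkab2, an AMPK subunit, differed by -0.63 (SE 0.19, limma adjusted p = 0.031) and Prkag2, another, by -0.59 (SE 0.16, adjusted p = 0.020). Nprl3 of GATOR1 differed by 0.45 (SE 0.10, adjusted p = 0.0078). That Prkab2 call was lost without mouse 2, 3, 4, 14, 16 or 17 (-0.64 to -0.50), and that of Prkag2 without mouse 15 or 17 (-0.51 to -0.49) and with equal totals. With the ketone ester against semaglutide alone, Rps6 differed by -0.59 (SE 0.20, limma adjusted p = 0.058) and Nprl3 by -0.34 (SE 0.12, limma adjusted p = 0.06). Neither was called in the main fit, but each was called in 7 of 23 alternatives, such as without mouse 13 (-0.74 and -0.39). In the same comparison Prkab2 differed by 0.69 (SE 0.22, limma adjusted p = 0.048). This second call was lost without any 1 of 11 mice (all but 13 and 15, 0.56 to 0.73).

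**Figure D5:**
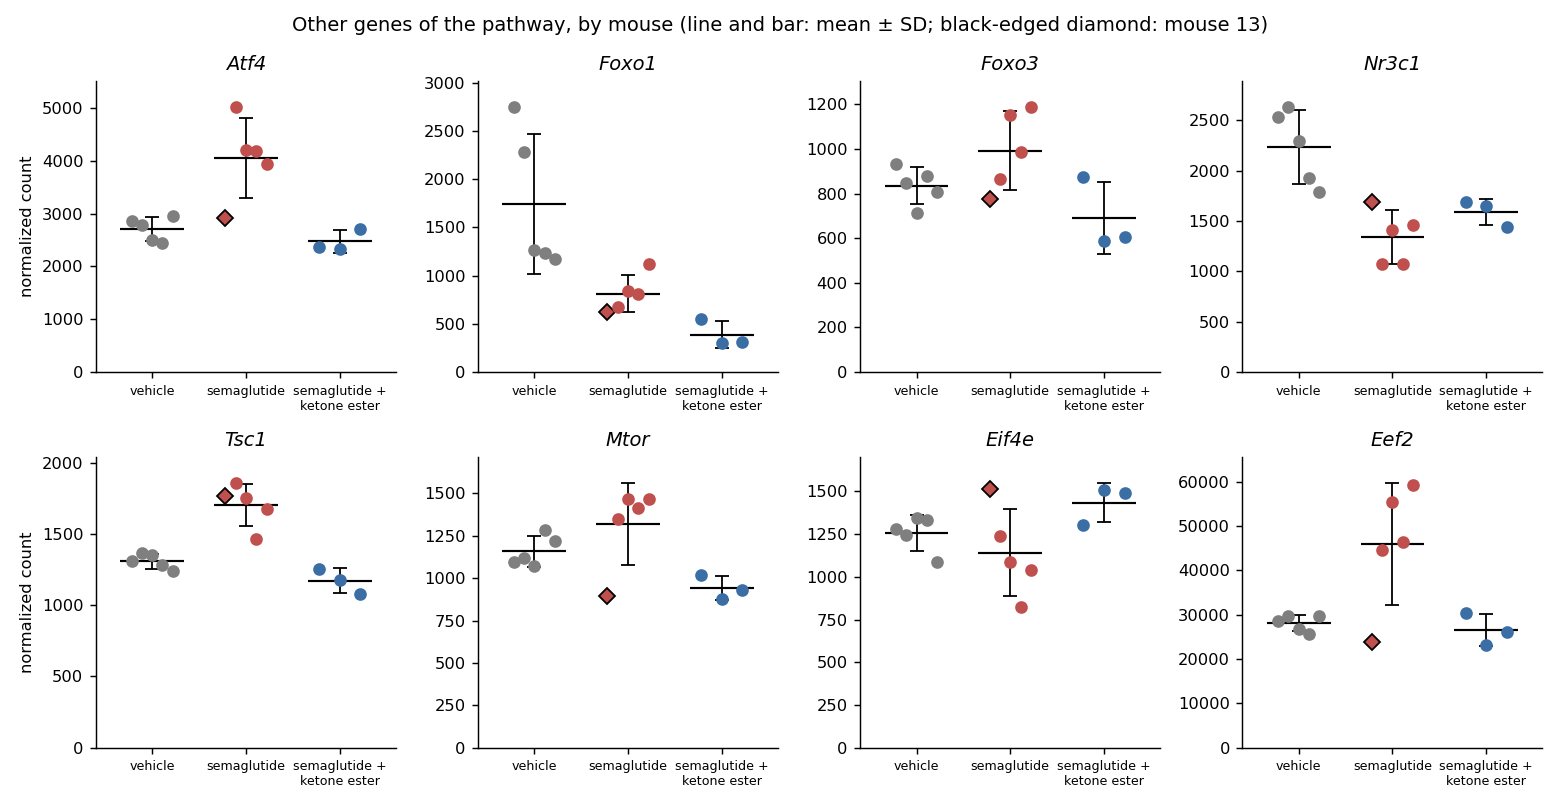
Normalized count (y axis, from 0) of 4 transcription factors (Atf4, Foxo1, Foxo3 and Nr3c1) and of Tsc1, Mtor, Eif4e and Eef2 in each mouse by group (x axis), with mean ± SD and mouse 13 as a black-edged diamond. Mouse 13 sits with the vehicle mice for Atf4 (2917) and below them for Mtor (894) but with its own group for Tsc1.

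Among the smaller lists, 1 of 12 Rag, Ragulator and Rheb genes was called lower for semaglutide against vehicle, beside 13.2% of all genes. It was Lamtor1, which differed by -0.43 (SE 0.12, limma adjusted p = 0.026). That call was lost without mouse 3, 5, 15, 16 or 17 (-0.42 to -0.36) and with equal totals. In GATOR2, Wdr59 differed by -0.28 (SE 0.0839, limma adjusted p = 0.032) and then by 0.36 (SE 0.0969, adjusted p = 0.025) with the ketone ester against semaglutide alone. Both calls were lost with equal totals, the first also without mouse 2, 4, 5, 16 or 17 (-0.28 to -0.22) and the second without mouse 17, 19, 21 or 22 (0.31 to 0.39). Grb10, an adaptor that dampens insulin signaling, was lower with the ketone ester than with semaglutide alone (-0.50, SE 0.14, limma adjusted p = 0.029), a call lost without mouse 15, 17, 21 or 22 (-0.51 to -0.36).

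Markers of other cell types moved as well. Smooth muscle and pericyte markers summed to 6663 to 8804 normalized counts in vehicle, 3991 to 5773 under semaglutide and 6578 to 7426 with both agents. By limma, 4 of 5 were lower in semaglutide than in vehicle mice, beside 13.2% of all genes. Fibroblast and tendon markers summed to 4586 to 14086, 5280 to 7287 and 8053 to 11330, with 4 of 6 lower. Adipocyte markers reached 10771 in semaglutide mouse 16, the mouse with the highest Ddit4, Sesn1 and Sesn2, against 141 to 2610 in the other vehicle and semaglutide mice. No adipocyte marker was called in any comparison. Erythroid, endothelial, macrophage, and Schwann and nerve markers had no gene called between semaglutide and vehicle. Neither did the satellite cell markers, of which Calcr was under the filter. With the ketone ester against semaglutide alone, limma called 4 of 5 erythroid, 3 of 8 skeletal muscle and 2 of 5 endothelial markers higher. It also called 2 of 6 fibroblast and tendon and 1 of 5 smooth muscle and pericyte markers higher, and 1 fibroblast and tendon marker lower. Over all genes, 9.09% were higher and 9.30% lower in that comparison. No marker in these lists was at 0 in all mice, and the part of these shifts in the levels of the 8 genes was not tested.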

How the data were processed

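The study prepared stranded mRNA libraries from frozen gastrocnemius. Reads were aligned to mm10 with DRAGEN. The submitters' processing notes also name DESeq2 with no role, and the counting program and annotation are not given in the sources used here. The table the authors deposited holds normalized counts of genes by mouse, a signal scaled from reads, and 0 of its columns lacked a sample. The deposited values were whole multiples of 1 step per mouse, so that whole reads were recovered for 100% of values (tolerance 0.01). The depth was 15319471 to 23498162 reads on genes. Samples were taken as separate mice, and no 2 mice of a group agreed within sampling noise.

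The members and lists were chosen with earlier results of these data known. Genes with a mean normalized count of at least 10 (12303 of 21868) were fitted on log2(normalized count + 1) with limma 3.58.1 in R 4.3.3, all 3 groups in 1 model, with Benjamini-Hochberg adjustment over all genes tested. This scale understates the change of low genes. On the recovered reads, the quasi-likelihood test of edgeR 4.0.16 called 3311 genes for semaglutide against vehicle, and limma called 3084. The script was tested on simulated data. DESeq2 1.42.0, other pseudocounts, filters and scalings, sample weights, the study's one-way criterion and leaving out each mouse were alternatives. Merged exon lengths came from GENCODE vM21 (GRCm38). The genes named were the 8 members, their 3 paralogs, 8 transcription factors, 8 core genes, in each other pathway list the 3 called genes of largest difference per comparison with semaglutide, and the 2 nearest profiles per member. Larp1, Pdcd4 and Bmt2 were named only to complete counts. All libraries carry 1 batch label.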

Additional observations from a re-analysis of the deposited data

Results flagged for a closer look

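In groups of 5 mice, a value is listed here when its gap to the nearest other mouse is a larger part of the group's range than Dixon's 95% critical value of 0.71. Of 80 groups tested, over 40 genes, 5 were listed, and chance lists about 1 in 20. Eif4ebp1 in semaglutide mouse 13 was 772 normalized counts, against 3467 to 5033 in the other semaglutide mice. Mtor in the same mouse was 894, against 1347 to 1469. Eif4ebp2 in semaglutide mouse 16 was 7404, against 9347 to 9798, and Akt1s1 in that mouse was 2138, against 2624 to 2750. Sesn1 in vehicle mouse 3 was 271, against 377 to 415.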

How the results depend on the processing

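The sign of each member's log2 difference was the same under all 23 alternatives in 21 of 24 member comparisons. The exceptions were Deptor for semaglutide against vehicle (21 of 23, lowest -0.0723) and Sesn1 and Castor2 for semaglutide + ketone ester against vehicle (22 of 23 each). The Eif4ebp1 difference ranged from 2.29 to 2.97 for semaglutide against vehicle and from -2.64 to -1.97 for semaglutide + ketone ester against semaglutide over the mice left out. The median of the 8 members for semaglutide against vehicle was 0.0929 and with equal totals 0.27, and for semaglutide + ketone ester against semaglutide it was -0.0459 and -0.28. Leaving out 1 mouse gave 0.00609 to 0.19 for the first, -0.16 to 0.00562 for the second and -0.16 to 0.0097 for semaglutide + ketone ester against vehicle, so that the sign of the last 2 medians is not settled.

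Genes called for semaglutide against vehicle numbered 3084, and 4847 with sample weights (arrayWeights), 1976 by the one-way criterion over the 3 groups, and 2065 (without mouse 17) to 4450 (without mouse 13) with 1 mouse left out. For semaglutide + ketone ester against semaglutide there were 2262, and 4198 with equal totals, 4279 with sample weights and 861 (without mouse 22) to 3959 (without mouse 13). For semaglutide + ketone ester against vehicle there were 29, and 4 without the filter, 45 with limma-trend and with edgeR, 205 with sample weights, 171 with DESeq2, 1976 by the one-way criterion, which spans all 3 groups, and 1 (without mouse 21) to 77 (without mouse 13). Pathway genes called numbered 17 in the first comparison, 27 with equal totals, 30 with sample weights and 11 to 30 with 1 mouse left out. In the second they numbered 15, with 7 without the filter, 31 with equal totals, 33 with sample weights and 3 to 30, and in the third 1, with 0 without the filter and 0 to 1. Some calls named above were also lost with all mice kept. Losses over the 23 alternatives follow, with those from leaving out 1 mouse in brackets. In the first comparison they were 10 (9) for Akt1s1, 10 (9) for Eef2, 7 (6) for Prkab2 and 7 (5) for Wdr59. In the second they were 14 (11) for Prkab2, 13 (12) for Eef2, 13 (11) for Foxo3 and 11 (10) for Akt1s1. There they were also 8 (7) for Telo2, 6 (5) for Foxo1 and 5 (4) for Grb10. In the third they were 6 (5) for Foxo1. The cause of these moves was not tested.

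No paired analysis was possible because the groups were different mice and the labels give no pairing of mice across groups. Precision is limited by the 3 mice in the semaglutide + ketone ester group, by the spread of mouse 13, and by low counts of Eif4ebp3 and Castor1. Protein level and phosphorylation, through which mTORC1 acts on the 4E-BPs, are not measured by these counts.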
